A study of Rattus norvegicus with 26 samples.

Results

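The messenger RNAs of 10 antioxidant enzymes were examined in the dentate gyrus (DG) of rats treated with the anthracycline doxorubicin (Dox), with or without the senolytic ABT-263, to ask whether their levels differed between treatments. The enzymes were the superoxide dismutases Sod1, Sod2 and Sod3, the catalase Cat, the glutathione peroxidase Gpx1, the peroxiredoxins Prdx1 and Prdx6, the thioredoxin reductase Txnrd1, and the catalytic and modifier subunits of glutamate-cysteine ligase, Gclc and Gclm. They were chosen by name, with earlier results of these data known, and all 10 were present among the 17910 gene IDs measured. All rats were male, of the F344 strain and about 6 months old, which by the paper is the age when treatment began. The paper also states that all animals went through behaviour tests once treatment had ended. From the hippocampus of 1 hemisphere, 1 DG library was made per rat. The Veh group held 10 rats that received the gavage vehicle and belonged to a separate, longer-running aging study. The Dox group held 8 rats injected with Dox once a week over 4 weeks. The Dox + ABT group held 8 rats given the same injections and, by gavage in 5-day courses in alternate weeks, ABT-263, which inhibits proteins of the Bcl-2 family. Tissue is bulk, so fewer cells of a type and less RNA per cell cannot be told apart.

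Superoxide formed by mitochondria and oxidases is converted to hydrogen peroxide by the superoxide dismutases, which act in the cytosol (Sod1), in the mitochondrial matrix (Sod2) and outside the cell (Sod3). The peroxide is then reduced to water by catalase in peroxisomes, by glutathione peroxidases and by peroxiredoxins. Reducing power comes from glutathione, whose first synthetic step is carried out by glutamate-cysteine ligase, and from thioredoxin, which Txnrd1 keeps reduced with electrons from NADPH. Several of these genes are textbook targets of the transcription factor Nrf2, which is held back by Keap1 and binds antioxidant response elements together with small Maf proteins.

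The values are normalized counts, read counts divided by a factor per library. Estimated depth ran from 10067300 to 24194200 reads per library; the errors below are the spread between rats. The libraries fell into 2 kinds, which were read from the data and are not groups of the study. The first kind held 16 libraries (4 Veh, 5 Dox and 7 Dox + ABT) and the second 10 (6 Veh, 3 Dox and 1 Dox + ABT). The share of counts in 79 ribosomal protein genes was 1.04% ± 0.152 in the first kind and 1.71% ± 0.236 (SD) in the second. This share averaged 1.47% in the Veh libraries, 1.26% after Dox and 1.1% after Dox with ABT-263. The groups' shares did not differ past p = 0.05 by two-sided exact permutation tests on its log2 (p = 0.400 for Dox with Veh, 0.0929 for Dox + ABT with Veh and 0.324 for Dox with Dox + ABT). Because the kinds are spread unevenly over the groups, each comparison was fitted with and without this share as a covariate. The share of counts in genes of the mitochondrial genome moved with the same split, at 8.90% ± 2.01 in the first kind and 15.1% ± 3.18 in the second. It averaged 13.5% ± 4.39 for Veh, 9.66% ± 2.67 for Dox and 10.1% ± 3.35 for Dox + ABT (SD), with 17.7% in Dox + ABT rat 4, and its part in the differences of Sod1, Sod3 and Prdx6 below was not tested. Markers on the DG granule cell list, which includes Rbfox3, a gene that other neurons also express, were present in all groups. Their summed levels were 12005 to 18521 normalized counts among Veh rats, 12323 to 19600 among Dox rats and 10409 to 14010 among Dox + ABT rats.

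Sequence near the start sites was examined for 8 of the 10 enzymes, those with an entry in the RefSeq promoter table of the rat build GRCr8, which covers 250 bases before to 50 after each start. The core of the antioxidant response element, TGACNNNGC, was found in 4 of the 9 windows of these 8 genes, 1 each of Sod2, Gclm, Prdx1 and Txnrd1. Txnrd1 has 2 windows and the other genes 1 each. Of all 33469 windows of the same length, 12.1% held it. The 4 matches are shown because they are the places in these windows where the letters of an Nrf2 element stand. Capitals mark the match, which in each case lies on the opposite strand.
Prdx1: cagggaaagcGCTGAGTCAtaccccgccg
Gclm: tgcggtttctGCTTAGTCAttgtcttcca
Txnrd1: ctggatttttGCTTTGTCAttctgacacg
Sod2: ggcgctgccgGCAGGGTCAgcgcctagct
The Prdx1 stretch lies at chr5:135383761-135383789 on the plus strand, with the match 135 bases before the start. The Gclm stretch lies at chr2:213031953-213031981 on the plus strand, 172 bases before the start. The Txnrd1 stretch lies at chr7:22755964-22755992 on the minus strand, 78 bases before the start of 1 of its 2 windows. The Sod2 stretch lies at chr1:50050185-50050213 on the minus strand, 35 bases before the start. Prdx1 also held the AP-1 letters TGACTCA at 2 places, 1 of which overlaps the match above. Both strands were searched, and 4.63% of all windows held TGACTCA. A match of letters is a description of the sequence and not of binding.

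None of the 10 enzymes passed the threshold of p under 0.01 in Dox against Veh, in Dox + ABT against Veh or in Dox against Dox + ABT (limma across 15595 genes). Over all tested genes, 2.87%, 7.84% and 4.03% passed it in the 3 comparisons. At p under 0.05 there were 2 enzymes, Sod3 and Prdx6, in the first comparison, 3, Sod1, Sod3 and Prdx6, in the second, and 1, Cat, in the third, while 10.2%, 22.5% and 12.7% of all genes reached it. With the ribosomal protein share as a covariate none passed p under 0.01 either (background 2.98%, 2.52% and 4.94%), and 2, 0 and 1 enzymes had p under 0.05 (background 9.18%, 10.5% and 14.5%). The smallest adjusted p of any enzyme was 0.140, for Sod1 in Dox + ABT against Veh. The median log2 difference of the 10 enzymes was -0.03 in Dox against Veh, 0.03 in Dox + ABT against Veh and -0.01 in Dox against Dox + ABT, with medians over all genes within 0.005 of 0. Dox against Veh and Dox + ABT against Veh share the Veh rats, so similar differences in both are not separate observations.

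**Figure D1:**
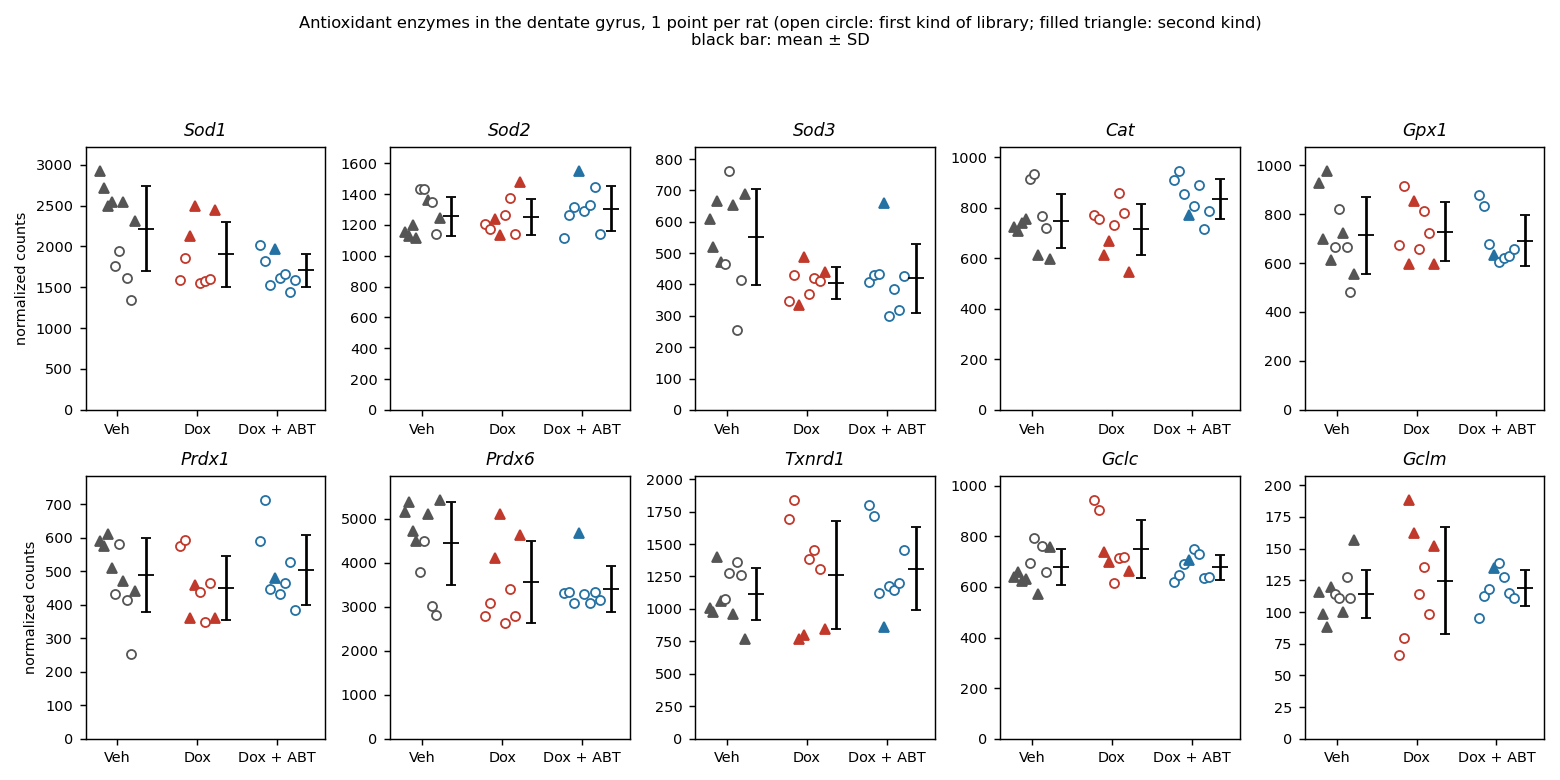
Normalized counts (vertical axes, from 0) of the 10 enzymes in each rat of the Veh, Dox and Dox + ABT groups, with the mean and SD as black bars. The groups overlapped for every enzyme, and the second kind of library (filled triangles) held most of the high Sod1 and Prdx6 values and the 5 lowest Txnrd1 values.

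Among the superoxide dismutases, the cytosolic enzyme Sod1 ran from 1341 to 2920 normalized counts in Veh (median 2402), from 1547 to 2492 in Dox (median 1733) and from 1448 to 2014 in Dox + ABT (median 1636). All 8 Dox + ABT rats and 6 of 8 Dox rats lay below the Veh median, yet the lowest rat of all was a Veh rat. The log2 difference was -0.20 (SE 0.13, p = 0.136) in Dox against Veh and -0.35 (SE 0.13, p = 0.0146, two-sided exact permutation p = 0.0283) in Dox + ABT against Veh. With the ribosomal protein share in the fit these became -0.07 (SE 0.055, p = 0.211) and -0.11 (SE 0.057, p = 0.0759). Leaving out Veh rat 5, 10 or 11 brought the second difference past the threshold, with -0.38, -0.39 and -0.42 and p = 0.00969, 0.00609 and 0.00164. With libraries weighted by their fit (arrayWeights) Sod1 passed in both comparisons, at -0.48 (p = 0.000134) and -0.53 (p = 1.2e-05). Adding the kind of library to the unweighted fit gave -0.085 (p = 0.287) and -0.094 (p = 0.271), and neither passed. Inside the first kind Sod1 was at -0.014 (p = 0.899) and 0.010 (p = 0.921). Inside the second kind Dox against Veh gave -0.14 (p = 0.195).

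Sod2, the mitochondrial enzyme, was the steadiest of the dismutases, with a coefficient of variation of 10.1% for Veh, 9.52% for Dox and 11.1% for Dox + ABT. Its values ran from 1118 to 1435 in Veh (median 1222), from 1137 to 1477 in Dox (median 1222) and from 1113 to 1549 in Dox + ABT (median 1304). Dox differed from Veh by -0.01 on the log2 scale, with a 95% interval of -0.16 to 0.15. That interval bounds the difference and does not show that the groups were alike.

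Sod3, the secreted dismutase, ran from 254.5 to 761.5 in Veh (median 564.2), from 335.9 to 486.6 in Dox (median 416.3) and from 299.7 to 661.6 in Dox + ABT (median 417.8). All 8 Dox rats and 7 of 8 Dox + ABT rats lay below the Veh median, and the Veh values were the most spread, with 1 rat below every treated rat. Means were 550.6 ± 153.6 for Veh, 405.5 ± 50.9 for Dox and 420.5 ± 110.1 for Dox + ABT (SD). The log2 difference of Dox from Veh was -0.39 (SE 0.16, p = 0.0231, adjusted p = 0.434, two-sided exact permutation p = 0.0414), and with the covariate it was -0.30 (SE 0.14, p = 0.0455). Dox + ABT against Veh gave -0.37 (SE 0.16, p = 0.0321, exact permutation p = 0.0844), and -0.20 (p = 0.184) with the covariate. Single libraries moved Sod3 past the threshold: without Veh rat 10, the lowest rat, the differences were -0.51 (p = 0.00078) and -0.48 (p = 0.00125), and without Dox + ABT rat 4, the highest of its group, the second was -0.46 (p = 0.00622). With arrayWeights Sod3 was at -0.42 (p = 0.00382) and -0.47 (p = 0.000676). Adding the kind of library to the unweighted fit gave -0.31 (p = 0.0450) and -0.19 (p = 0.231) for Sod3.

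Of the enzymes that remove peroxide, Cat, the peroxisomal catalase, ran from 598.8 to 935.5 in Veh (median 732.3), from 547.8 to 859.9 in Dox (median 744.3) and from 714.3 to 945.0 in Dox + ABT (median 830.7). Of the 8 Dox rats 7 lay below the Dox + ABT median and 3 lay below every Dox + ABT rat. Dox was lower than Dox + ABT by a log2 difference of -0.23 (SE 0.097, p = 0.0242, adjusted p = 0.315), with an exact permutation p of 0.0190, and -0.20 (p = 0.0326) with the covariate. Against Veh, Dox differed by -0.06 (p = 0.495) and Dox + ABT by 0.17 (p = 0.0792), or by -0.10 and 0.10 with the covariate. Within the first kind of library alone the difference between Dox and Dox + ABT was -0.11 (p = 0.211).

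Gpx1, the cytosolic selenium-dependent peroxidase, ran from 480.9 to 975.1 in Veh (median 681.5), from 594.2 to 916.3 in Dox (median 697.8) and from 603.7 to 878.4 in Dox + ABT (median 645.8). Its log2 differences were 0.04 (95% interval -0.20 to 0.29), -0.03 (-0.27 to 0.22) and 0.07 (-0.19 to 0.33) in the order given above, and 0.08, 0.04 and 0.04 with the covariate. Of all enzymes it had one of the smallest shares of variance between groups, 1.30%, and only Gclm, with 0.975%, had a smaller one.

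Prdx1, a peroxiredoxin that hands its oxidation on to thioredoxin, ran from 252.3 to 613.0 in Veh (median 490.6), from 348.9 to 593.2 in Dox (median 450.2) and from 383.5 to 713.1 in Dox + ABT (median 473.6). The groups overlapped across most of their range, and the log2 differences were -0.10 (SE 0.15), 0.06 (SE 0.15) and -0.17 (SE 0.16), with p from 0.294 to 0.668. With the covariate they were -0.03, 0.20 and -0.23, with p from 0.112 to 0.850. RefSeq lists processed pseudogenes of Prdx1, Prdx6 and Sod2, so reads could be split with near-identical copies and their levels are uncertain to that extent.

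Prdx6, the peroxiredoxin that uses glutathione and is abundant in astrocytes, ran from 2821 to 5421 in Veh (median 4614), from 2619 to 5095 in Dox (median 3252) and from 3073 to 4681 in Dox + ABT (median 3294). In Prdx6, 6 of 8 Dox rats and 7 of 8 Dox + ABT rats lay below the Veh median. Means were 4440 ± 943 for Veh, 3567 ± 934 for Dox and 3405 ± 527 for Dox + ABT (SD). Dox differed from Veh by -0.32 on the log2 scale (SE 0.14, p = 0.0282, adjusted p = 0.450, two-sided exact permutation p = 0.0714). With the covariate Prdx6 differed by -0.19 (SE 0.072, p = 0.0136, adjusted p = 0.372). Its covariate-adjusted p was the smallest of the 10 enzymes in that comparison. Dox + ABT differed from Veh by -0.36 (SE 0.14, p = 0.0150, exact permutation p = 0.0206), and by -0.12 (SE 0.076, p = 0.113) with the covariate. Single libraries decided the call here too: without Veh rat 10, Veh rat 11 or Dox rat 7 the first difference was -0.38, -0.39 and -0.40, with p = 0.0091, 0.00608 and 0.00648. Without Veh rat 10, Veh rat 11 or Dox + ABT rat 4 the second was -0.42, -0.43 and -0.43, with p = 0.00455, 0.00293 and 0.00478. With arrayWeights Prdx6 was at -0.56 (p = 2.3e-05) and -0.50 (p = 3.9e-05). In the unweighted fit that held the kind of library, Prdx6 was at -0.19 (p = 0.0168) and -0.088 (p = 0.292).

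Txnrd1, which returns electrons to thioredoxin, ran from 771.6 to 1400 in Veh (median 1068), from 765.5 to 1839 in Dox (median 1345) and from 863.3 to 1803 in Dox + ABT (median 1190). There were 3 Dox rats and 3 Dox + ABT rats above every Veh rat, while 1 Dox rat lay below all of them. The coefficient of variation was 18.1% for Veh, 32.9% for Dox and 24.5% for Dox + ABT. The log2 differences were 0.12 (SE 0.17, p = 0.464), 0.22 (SE 0.17, p = 0.205) and -0.09 (SE 0.18, p = 0.603), and with the covariate 0.03, 0.05 and -0.02. The first ran from 0.036 without Dox rat 2 to 0.22 without Dox rat 5 when each rat was left out.

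The catalytic ligase subunit Gclc ran from 570.2 to 792.4 in Veh (median 659.9), from 614.8 to 943.0 in Dox (median 716.7) and from 617.8 to 749.1 in Dox + ABT (median 668.9). Of the 8 Dox rats 7 lay above the Veh median, with 2 above every Veh rat, and the log2 difference was 0.14 (SE 0.081, p = 0.107). Dox + ABT differed from Veh by 0.00 (95% interval -0.17 to 0.17). The modifier subunit Gclm, which raises the affinity of Gclc for glutamate, ran from 88.2 to 156.7 in Veh (median 113.0), from 66.4 to 188.3 in Dox (median 125.1) and from 95.5 to 138.4 in Dox + ABT (median 116.7). Dox rats held both the 2 lowest and the 2 highest values of any group, with a coefficient of variation of 33.9% against 16.5% in Veh and 11.7% in Dox + ABT. The log2 differences of Gclm were 0.06, 0.07 and 0.00 (SE 0.16 for each), and 0.09, 0.12 and -0.03 with the covariate.

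**Figure D2:**
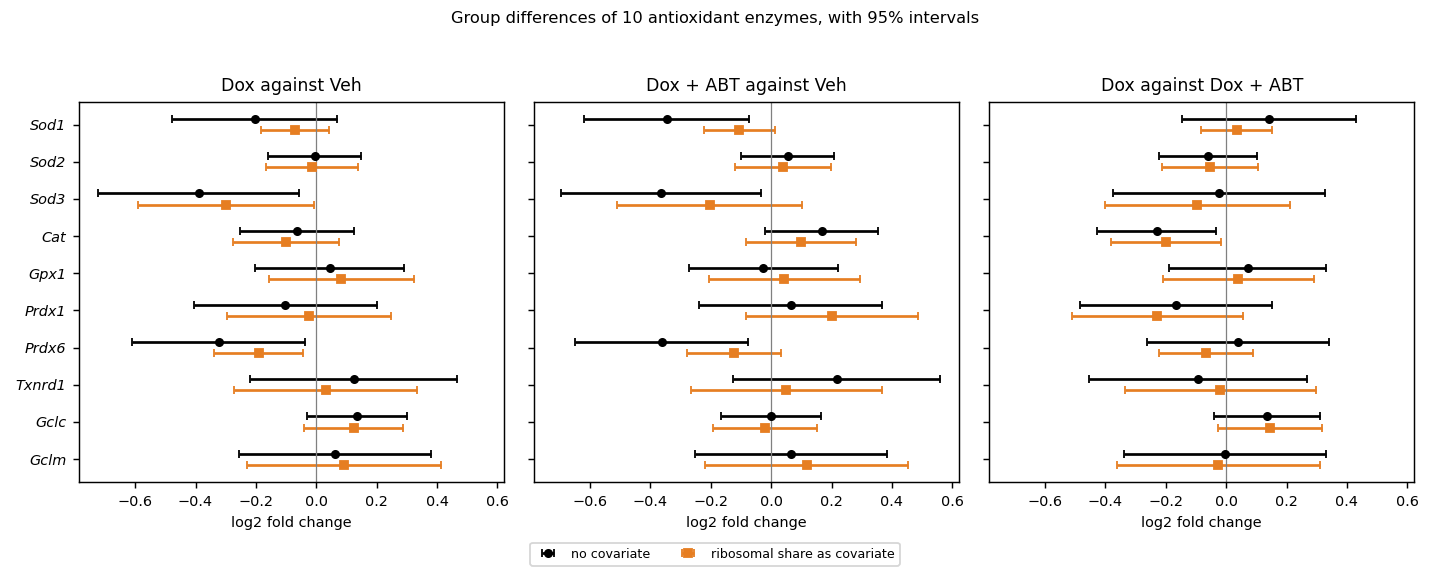
Log2 fold changes (horizontal axis) with 95% intervals for the 10 enzymes in the 3 comparisons, without a covariate (black circles) and with the ribosomal protein share as a covariate (orange squares). In Dox + ABT against Veh the Sod1 value moved from -0.35 to -0.11 and the Prdx6 value from -0.36 to -0.12.

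Within groups, 5 of the 10 enzymes depended on the ribosomal protein share of the library at p under 0.01, against 35.4% of all genes. Sod1 was higher by 0.69 on the log2 scale per doubling of the share (SE 0.058, p = 1.74e-12, adjusted p = 3.52e-10), and Prdx6 by 0.68 (SE 0.076, p = 1.11e-09, adjusted p = 7.64e-08). The share took up 90.3% of the variance of Sod1 within groups and 79.5% of that of Prdx6. Markers of other cells moved with the share too: 6 of 7 red blood cell markers were higher with it, by 2.30 to 2.97 per doubling, and of 9 astrocyte markers 3 were higher and 4 lower. Red blood cells carry Sod1 and astrocytes carry Prdx6, and the part of these cells in the slopes was not tested. The SD of Sod1 between rats of 1 group went from 0.30 to 0.094 on the log2 scale once the share was fitted. Sod3 (0.46, p = 0.0047) and Prdx1 (0.39, p = 0.00871) were also higher with the share, and Txnrd1 was lower (-0.48, p = 0.00476). Cat (-0.19, p = 0.0404), Gpx1 (0.20, p = 0.118), Gclm (0.15, p = 0.381), Gclc (-0.06, p = 0.498) and Sod2 (-0.04, p = 0.599) did not pass. Without Veh rats 10 and 11 together, the libraries of lowest share in that group, the Sod3 slope was 0.25 (p = 0.178), the Prdx1 slope 0.08 (p = 0.664) and the Cat slope -0.40 (p = 0.00251). The Prdx1 slope also missed the threshold with TMM rescaling (0.37, p = 0.0117) and with no variance trend (0.39, p = 0.0126).

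The same dependence was fitted within each kind of library. In the 16 libraries of the first kind Sod1 gave 0.57 (p = 0.000308) and Prdx6 0.49 (p = 0.00537), and in 9 libraries of the second kind, its lone Dox + ABT rat left out, 0.43 (p = 0.171) and 0.50 (p = 0.128). Prdx1 and Gpx1 were steeper in the first kind, with 1.24 (p = 2.73e-05) and 0.75 (p = 0.000735), and 9.09% of all genes passed there against 0.308% in the second kind. Txnrd1 turned direction in the first kind, to 0.29 (p = 0.235), and Cat, -0.19 over all rats, stood at 0.37 (p = 0.0194). Between the kinds, within groups, the log2 difference of Txnrd1, second minus first, was -0.58 (p = 1.13e-05). For Cat that step was -0.28 (p = 0.00024), and 4 of the 10 enzymes, Sod1, Prdx6, Txnrd1 and Cat, passed for the step, against 35.1% of all genes. None of the 10 slopes differed between the kinds at p under 0.01 in a test of the difference, and 0.763% of all genes did; the smallest p was 0.0316, for Sod2. Leaving out 1 of 11 rats in turn brought the Prdx1 slope over all rats above p = 0.01, with 0.16 (p = 0.333) without Veh rat 11, the library of lowest share. Without Veh rat 10 the count of enzymes was 3, and the Sod3 slope was 0.32 (p = 0.0255); elsewhere the Txnrd1 slope was -0.42 (p = 0.0175) and -0.43 (p = 0.0115) without Dox rats 7 and 14, and the Cat slope was -0.32 (p = 0.00523) without Veh rat 11.

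**Figure D3:**
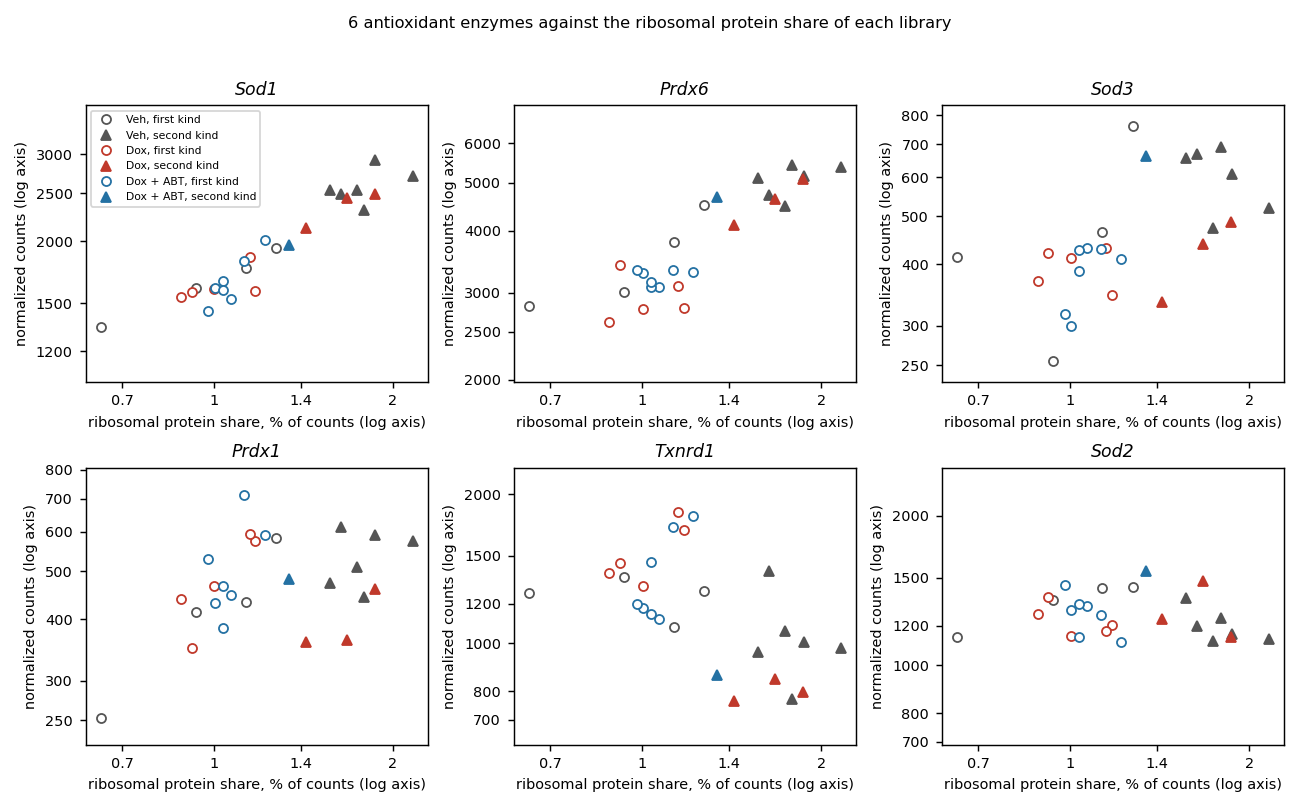
Normalized counts of 6 enzymes (vertical axes, log scale) against the ribosomal protein share of each library (horizontal axes, percent of counts, log scale), with colours for the groups and open circles or filled triangles for the first and second kind of library. Over all rats Sod1 and Prdx6 climbed with the share, Txnrd1 was lower in the second kind, and Sod2 had a slope of -0.04.

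**Figure D4:**
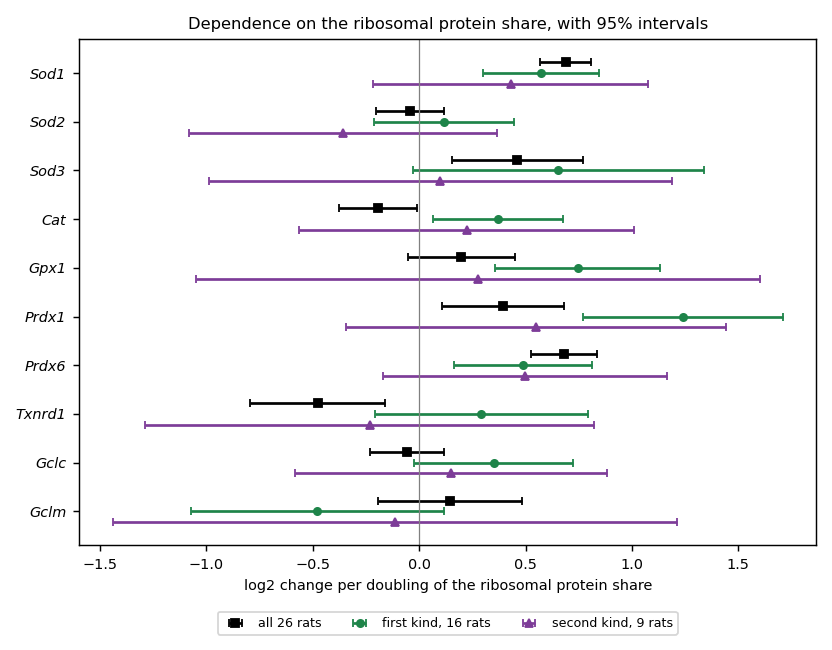
Log2 change per doubling of the ribosomal protein share (horizontal axis) with 95% intervals, fitted over all 26 rats (black squares), over 16 rats of the first kind (green circles) and over 9 rats of the second kind (purple triangles). Sod1 and Prdx6 stayed above 0 in the first kind and over all rats, Txnrd1 was at -0.48 over all rats and 0.29 in the first kind, and the second kind gave wide intervals.

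Dox was also compared with Veh inside each kind of library. Among libraries of the second kind (3 Dox and 6 Veh rats), 3 enzymes passed p under 0.01, against 3.57% of all genes. Sod3 differed by -0.52 (p = 0.00477, adjusted p = 0.260), Prdx1 by -0.44 (p = 0.00673, adjusted p = 0.265) and Gclm by 0.58 (p = 0.00818, adjusted p = 0.278). The 3 Dox rats had 188.3, 162.0 and 152.0 normalized counts of Gclm, and the 6 Veh rats ran from 88.2 to 156.7. They had 335.9, 486.6 and 439.5 of Sod3 where the Veh rats ran from 472.5 to 689.0, and 359.5, 460.9 and 362.3 of Prdx1 where the Veh rats ran from 442.5 to 613.0. Each of the 3 genes overlapped between the groups by at least 1 rat. Of the 3 Dox rats, rats 5 and 7, which had the highest Gclm values, also had summed red blood cell markers of 96501 and 135394, where rat 14 had 14641 and no Veh rat was above 26858. The part of red blood cells in these 3 differences was not tested. Among libraries of the first kind (5 Dox and 4 Veh rats) none passed, against 4.76% of all genes, and the smallest p was 0.0416, for Prdx6 at -0.24. Prdx1 was at 0.24 and Gclm at -0.27 there, the opposite direction to the second kind.

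The difference between the kinds was tested in a single fit. Gclm (0.85 on the log2 scale, p = 0.00239, adjusted p = 0.0944) and Txnrd1 (-0.63, p = 0.00691, adjusted p = 0.115) passed p under 0.01, as did 7.75% of all genes, and Prdx1 (-0.68) had p = 0.0228. In the first kind the 5 Dox rats ran from 1305 to 1839 normalized counts of Txnrd1 and the 4 Veh rats from 1077 to 1362. In the second kind the 3 Dox rats had 765.5, 796.5 and 845.3, and the 6 Veh rats ran from 771.6 to 1400. Dox rats were thus the high end for Txnrd1 in the first kind and the low end in the second, with an overlap of rats in each. Leaving out each of the 18 rats in turn, Gclm stayed between 0.72 and 0.98 and passed in 17 cases, the exception being without Dox rat 5 (0.77, p = 0.0103). Txnrd1 stayed between -0.71 and -0.54 and passed in 11 of 18, with its largest p, 0.0187, without Veh rat 5 (-0.57). The kinds were defined on all genes of these same libraries, and what sets them apart cannot be told from the labels.

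**Figure D5:**
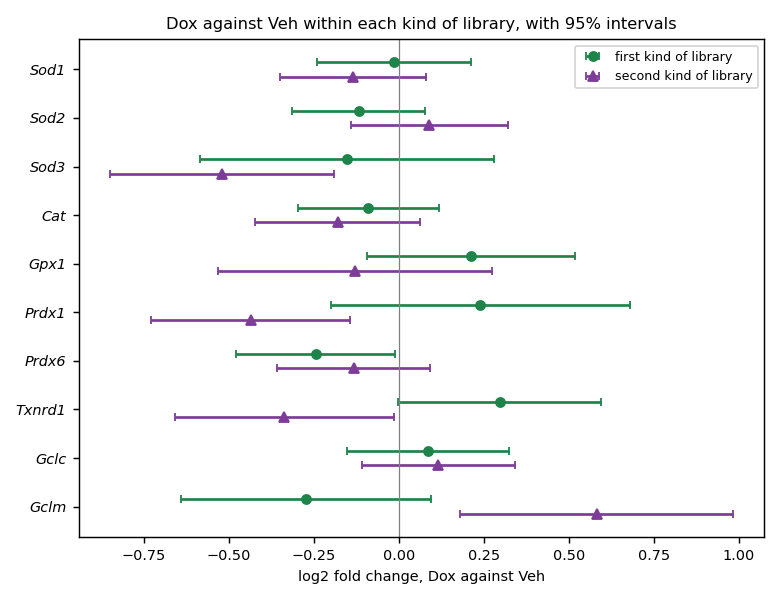
Log2 fold change of Dox against Veh (horizontal axis) with 95% intervals for the 10 enzymes, fitted within the first kind of library (green circles, 5 Dox and 4 Veh rats) and the second kind (purple triangles, 3 Dox and 6 Veh rats). Gclm, Txnrd1 and Prdx1, and also Gpx1 and Sod2, lie on opposite sides of 0 in the 2 kinds.

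After group means and the ribosomal protein share were removed within each kind, the rat-to-rat variation of the enzymes was compared in pairs. Of 45 pairs, 0 in the first kind (16 rats, 100000 permutations) had an adjusted p under 0.05 for Pearson's r. The second kind (9 rats, permutation over all orders) had 1. By Spearman's rho neither kind had any such pair. The pair was Gpx1 and Prdx1 in the second kind, with r = 0.93 (permutation p = 0.000361, adjusted p = 0.0163). Its rho was 0.85 (permutation p = 0.00607, adjusted p = 0.156), and r was 0.86 without the 2 rats farthest from the median of Gpx1. Residuals left by a fit of group means and the share are not freely exchangeable between rats. These permutation p values are therefore approximate and may be too small, so the call of this pair is not secure.

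The wider pathway was covered by 105 named genes in 7 lists, of which 98 were measured and 96 tested. In Dox against Veh 1 rose and 2 fell at p under 0.01 (3.12%, near the 2.87% of all genes). Maff, a small Maf partner of Nrf2, rose by 1.22 on the log2 scale (p = 0.00937), with 13.8 ± 7.48 normalized counts for Veh, 38.5 ± 26.5 for Dox and 7.44 ± 3.34 for Dox + ABT (SD). It was also higher in Dox than in Dox + ABT, by 1.96 (p = 0.000221, adjusted p = 0.115), and both calls held with the covariate (p = 0.00257 and 0.000301). Slc7a11, the cystine importer that feeds glutathione synthesis, fell by 0.45 (p = 0.000496, adjusted p = 0.140), from 960.5 ± 97.5 in Veh to 718.3 ± 181.7 in Dox, and was 902.7 ± 131.9 in Dox + ABT. It was lower in Dox than in Dox + ABT by a log2 difference of -0.36 (p = 0.00657). Idh1, a cytosolic source of NADPH, fell by 0.27 in Dox against Veh (p = 0.001). The ligase genes Gclc and Gclm, which use the cysteine that Slc7a11 supplies, did not pass in that comparison.

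In Dox + ABT against Veh 0 rose and 6 fell (6.25%, against 7.84% of all genes). They included Tkt of the pentose phosphate pathway (-0.49, p = 0.000544), Ggct of the glutathione list (-0.43, p = 0.00508) and the Nrf2 repressor Keap1 (-0.31, p = 0.00391). The rest were the biliverdin reductase Blvrb (-0.32, p = 0.00625), the epoxide hydrolase Ephx1 (-0.35, p = 0.00668) and the selenocysteine elongation factor Eefsec (-0.31, p = 0.00814). With the ribosomal protein share in the fit 1 of these 6 genes, Tkt, passed (-0.30, p = 0.00153), and 2.52% of all genes did. In Dox against Dox + ABT Maff was higher and Slc7a11 and Msrb2, a methionine sulfoxide reductase (-0.39, p = 0.00175), were lower (3.12% against 4.03%). With the covariate 4 passed (4.17%, against 4.94% of all genes): these 3 and Pgls, an enzyme of the pentose phosphate pathway, which was higher (0.35, p = 0.00489). The count in Dox + ABT against Veh moved between 1 and 20 when each rat was left out, with 20 without Veh rat 11 and 1 without Dox + ABT rat 11, and that in Dox against Veh between 2 and 8, with 8 without Veh rat 11. Without Veh rat 1, 2 or 3, or Dox + ABT rat 5, it was 2 in Dox + ABT against Veh, without Veh rat 9 or Dox + ABT rat 3, 6 or 12 it was 3, and without Veh rats 5 and 10 it was 11 and 12. In Dox against Veh it was 5 and 6 without Dox rats 5 and 7, and in Dox against Dox + ABT 5 without Dox rat 5 or 9. The share of all genes that passed in these refits was not taken, so the moves are not a result about the pathway.

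List by list, the genes with the smallest p in Dox against Veh were Msrb2 (-0.25, p = 0.0308) and Msrb3 (0.33, p = 0.0883) among the other superoxide and peroxide enzymes, and Glrx2 (-0.30, p = 0.0558) and Glrx3 (-0.20, p = 0.254) in the thioredoxin and glutaredoxin system. They were Slc7a11 and the glutathione transferase Gstm5 (-0.32, p = 0.0397) for glutathione, Idh1 and the NAD kinase Nadk2 (-0.23, p = 0.0123) for NADPH, and Maff and the retinal dehydrogenase Aldh1a1 (-0.26, p = 0.0221) for Nrf2. For selenoprotein synthesis they were Pstk (0.23, p = 0.0602) and Sephs1 (0.16, p = 0.113), and for oxidant sources the NADPH oxidase subunit Ncf1 (-0.54, p = 0.0117) and the monoamine oxidase Maob (-0.29, p = 0.0212). Of these, Slc7a11, Idh1 and Maff passed p under 0.01. Over all rats, 41 of the 96 genes were higher and 9 lower in libraries of higher ribosomal protein share at p under 0.01 (52.1%, beside 35.4% of all genes, a difference that was not tested), with values from -1.22 per doubling for Pxdn to 0.99 for Prdx4 among those that passed. Among the genes named above, Glrx3 was at 0.85, Gstm5 at 0.68 and Glrx2 at 0.67.

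Markers of other cells moved with some groups. Summed astrocyte markers ran from 65162 to 103340 normalized counts in Veh (median 74758), from 58025 to 76166 in Dox (median 66060) and from 65015 to 91654 in Dox + ABT (median 72925). Of 9 such markers 3, Gfap, Aqp4 and Aldh1l1, fell in Dox against Veh at p under 0.01, where 2.87% of all genes passed in either direction. Of the other 6, 4 had log2 differences above 0, from 0.03 to 0.11, and none of these passed. Summed red blood cell markers ran from 2406 to 26858 in Veh, from 3726 to 135394 in Dox and from 3278 to 12033 in Dox + ABT; 0 of 7 measured markers were called in Dox against Veh (2.87% of all genes), and 6 rose with the covariate (2.98%). Of 9 microglia markers 4 fell in Dox against Veh, and 3 with the covariate, beside the same 2.87% and 2.98% of all genes. The complement genes C1qa, C1qb and C1qc, also microglia markers, had differences of 0.18, 0.12 and 0.27 and did not pass. The microglia markers had sums of 4336 to 7879 for Veh, 4162 to 6319 for Dox and 4117 to 6906 for Dox + ABT. In Dox + ABT against Veh, where 7.84% of all genes passed, 1 of 5 granule cell markers fell, C1ql2 (-0.46, p = 0.000697, and -0.34, p = 0.00462, with the covariate). Rbfox3, which other neurons also express, was at -0.53 (p = 0.0141). Prox1, the only 1 of the 5 above 0, was at 0.22 and did not pass. The granule list summed to 15467 ± 2442 for Veh and 12331 ± 1270 for Dox + ABT (SD). Within that sum Rbfox3 averaged 4047 for Veh and 2714 for Dox + ABT, and Prox1 averaged 2467 and 2813. In Dox + ABT against Veh 1 of 9 astrocyte and 1 of 9 microglia markers also fell, and 1 of 8 oligodendrocyte markers rose. Red blood cells carry Cat, Gpx1 and Sod1, and astrocytes carry Prdx6. The part of these cells in the values above was not tested.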

How the data were processed

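DG poly(A) RNA from 26 rats was sequenced by the authors on an Ion Proton instrument, aligned to rn6 with STAR 2.5.3a in Partek Flow, and divided by Median Ratio factors. The deposited signal is these normalized counts, 24012 transcript rows with 17910 gene IDs, not raw reads. DESeq2 was named in the submitters' processing notes and not used here. Low values were whole multiples of 1 read for 58.1% to 78.5% by library (tolerance 0.05), so no count test was run. Every column was mapped to a rat by its title, and 0 pairs of libraries were identical.

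Rows were summed per gene ID, log2(value + 1) was taken, and 15595 genes with a mean of at least 5 were fitted with limma 3.58.1 (R 4.3.3, variance trend) over all 26 rats, two-sided, at p under 0.01 as in the study's methods, with Benjamini-Hochberg values over all tested genes. Fold changes on this scale understate those of low genes such as Maff. Intervals are 95%. The ribosomal protein share entered as centred log2. Kinds of library were split at the largest gap along the first principal component of within-group deviations (28.4% of variance). Single values were also tested by exact permutation. The fit was also run on simulated data with independent errors and without kinds of library. That run does not bear on how stable the calls are. Promoter windows (RefSeq, GRCr8) and genes were matched by symbol; no rn6 coordinates are given.

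The 10 enzymes and all lists were chosen with earlier results of these data known. Named genes are the 10 enzymes, the 2 genes of each pathway list with the smallest p in Dox against Veh and any pathway gene with p under 0.01 in any comparison, here also with the covariate; the rule's 2 markers of highest mean per cell list include Hbb, Hba-a1, Gfap, S100b, Csf1r, C1qa, Mbp, Cldn5, Flt1, Ttr, Dcn, C1ql2 and Rbfox3, and 1 is not reported here. Aqp4, Aldh1l1, C1qb, C1qc, Prox1, Pxdn and Prdx4 were named after their values were seen. At p under 0.01 in Dox against Veh, 2 of 8 oligodendrocyte markers fell, 1 of 7 endothelial and mural markers rose, 1 of 6 choroid plexus and meningeal markers fell and 0 of 5 granule cell markers were called (2.87% of all genes). The same rat number in different groups names different animals, since each rat belonged to 1 group. In 16 pairs with the same number, correlations of deviations ran from -0.22 to 0.44, which does not show whether the numbers mark a shared block. The alternatives were pseudocounts of 0.5 and 5, no filter, a mean of at least 20, rescaling by trimmed means of M values (TMM, computed on the normalized values), no trend, arrayWeights, each covariate, each kind of library, the 2 groups alone, the rat number as a block, the highest transcript row and leaving out each rat; leaving out 2 Veh libraries was added after seeing the data.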

Additional observations from a re-analysis of the deposited data

Results flagged for a closer look

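In a check of each enzyme in each group for a rat far from the rest, 2 of 30 groups stood out, where chance gives about 1 in 20. Both were the same animal, Dox + ABT rat 4, the only Dox + ABT library of the second kind. It had 661.6 normalized counts of Sod3, where the next rat had 432.3, and 4681 of Prdx6, where the next had 3334. There were 2 enzymes with a Dox against Veh difference that depended on the kind of library in a test of the difference itself (limma). For Txnrd1 the second kind minus the first was -0.63 (p = 0.00691, adjusted p = 0.115), and for Gclm it was 0.85 (p = 0.00239, adjusted p = 0.0944), with 7.75% of all genes at p under 0.01. What sets the kinds apart was not tested.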

How the results depend on the processing

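The 10 enzymes, none called in the 3 comparisons of treatments, became 3 in Dox against Veh and 3 in Dox + ABT against Veh with arrayWeights (Sod1, Sod3 and Prdx6), which weight libraries by their fit. They also became 3 and 3 without the 2 Veh libraries of lowest ribosomal protein share, rats 10 and 11, an alternative chosen after seeing the data. Sod1, Sod3 and Prdx6 were the same 3 there, at -0.34, -0.56 and -0.47 in Dox against Veh and -0.49, -0.54 and -0.51 in Dox + ABT against Veh. With the 2 groups alone 1 was called in Dox + ABT against Veh (Prdx6), and within the second kind of library 3 in Dox against Veh (3.57% of all genes). Leaving out each rat gave 0 to 2 enzymes in Dox against Veh, 0 to 3 in Dox + ABT against Veh and 3 to 5 for the slope on the share. Apart from the second kind, the share of all genes called under these alternatives was not taken. Those counts of enzymes therefore cannot be set against a background. The 3, 6 and 3 pathway genes in Dox against Veh, Dox + ABT against Veh and Dox against Dox + ABT became 22, 44 and 10 with arrayWeights and 14, 26 and 5 without the 2 Veh libraries. Within the first kind they became 5, 0 and 6, and 4.76% of all genes passed there in Dox against Veh. Dox + ABT against Veh gave 1 with the share and 2 with the kind of library as covariate, and Dox against Dox + ABT gave 5 with 2 groups alone. Leaving out each rat gave 2 to 8, 1 to 20 and 2 to 5. The share of all genes called was not taken for arrayWeights, the 2 groups alone, the kind as covariate or any left-out library. Counts of pathway genes under those settings cannot be set against it.

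Direction turned for these values. In Dox against Veh they were Sod2 (0.0030 with TMM, 0.057 with arrayWeights, 0.090 in the second kind), Cat (0.0094 with arrayWeights), Txnrd1 (-0.0065 with the kind as covariate, -0.34 in the second kind), Prdx1 (0.24 in the first kind), Gclm (-0.27 in the first kind) and Gpx1 (-0.13 in the second kind, -0.031 without the 2 Veh libraries). In Dox + ABT against Veh they were Gclc (0.0094 with TMM, 0.055 with arrayWeights, 0.017 without the 2 Veh libraries), Prdx1 (-0.084 with arrayWeights, -0.074 without the 2 Veh libraries), Gpx1 (0.043 with the share, 0.098 in the first kind), Txnrd1 (-0.059 with the kind), Sod1 (0.010 in the first kind) and Sod2 (-0.074 in the first kind). In Dox against Dox + ABT they were Sod3 (0.051 with arrayWeights, 0.047 in the first kind), Prdx6 (-0.061 with arrayWeights, -0.067 with the share, -0.11 with the kind, -0.14 in the first kind), Txnrd1 (0.052 with arrayWeights, 0.053 with the kind, 0.17 in the first kind) and Sod1 (-0.024 in the first kind). The Gpx1 slope was -0.00051 without the 2 Veh libraries. The cause was not tested.

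Leaving out each rat turned the direction of Gpx1 (-0.015 to 0.098), Gclm (-0.034 to 0.18) and Sod2 (-0.040 to 0.017) in Dox against Veh, of Gclc (-0.027 to 0.025), Gpx1 (-0.086 to 0.027) and Prdx1 (-0.037 to 0.12) in Dox + ABT against Veh, and of Gclm (-0.099 to 0.11), Prdx6 (-0.041 to 0.11) and Sod3 (-0.088 to 0.075) in Dox against Dox + ABT.

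With the rat number as a replicate block, 7 pathway genes were called in Dox against Veh, 1 enzyme in Dox + ABT against Veh (Sod1, -0.37, p = 0.0048) and 3 enzymes for the slope. Under that block Gpx1 (-0.035) and Gclm (-0.029) turned in Dox against Veh, Sod3 (0.087), Prdx6 (-0.046), Txnrd1 (0.0052) and Gpx1 (-0.021) in Dox against Dox + ABT, and the Sod2 slope to 0.079. Of the 16 same-number pairs 6 had a correlation of deviations over 0.1, and the median was -0.0125. These correlations cannot show whether the numbers mark a shared block. The share of all genes called under the block was not taken.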
